A study of Mus musculus with 32 samples.

Results

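The genes described here are Fga, Fgb and Fgg, which encode the Aα, Bβ and γ chains of fibrinogen. They were taken by name from the deposited count table, 3 of its 54532 genes, and all 3 passed the low-count filter over the 8 groups, as did 18220 genes. They were chosen by their levels and fold changes over these 32 mice, which were already known, so those values are given as a description. Whether a chain passed the thresholds used for all genes is given only beside the share of all genes that did, and nothing is read from it. Kidney RNA was sequenced from 32 wild-type C57BL/6 mice, in 8 groups of 4, each group being 1 sex on 1 day. Males and females were sampled at Day 0 or at Day 2, Day 3 or Day 5 after an intraperitoneal injection of 20 mg/kg cisplatin, a platinum compound toxic to the kidney tubule, and the mice were 6 to 8 weeks old at purchase. The Day 0 mice are described as healthy animals, although the labels list cisplatin for the Day 0 females and no treatment for the Day 0 males. Whole kidney tissue holds many cell types, so that more cells of a type and more RNA per cell cannot be told apart in any value below.

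Fibrinogen is a plasma protein of paired Aα, Bβ and γ chains that are made and joined mainly in hepatocytes. Thrombin cuts it to fibrin, the mesh of a blood clot, and plasmin dissolves that mesh again. The 3 genes are known as acute-phase genes of the liver, switched on together by interleukin-6 through STAT3, with C/EBP factors acting at their promoters. Injured kidney tubules are also known to make fibrinogen chains, and albumin (Alb) and apolipoprotein A1 (Apoa1), abundant products of hepatocytes, were therefore read in every mouse beside the chains.

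The 3 genes lie side by side on chromosome 3. In the coordinates of the count table, which match GRCm38 genes, Fgg (ENSMUSG00000033860) spans 83007724 to 83015049 on the plus strand, Fga (ENSMUSG00000028001) spans 83026076 to 83033627 on the plus strand, and Fgb (ENSMUSG00000033831) spans 83040141 to 83049863 on the minus strand. The gaps between them measure 11026 and 6513 bp, and the summed exon lengths are 2093 bases for Fgg, 3010 for Fga and 3810 for Fgb. The annotation lists 2 transcripts of Fga with 5 and 6 exons, 1 transcript of Fgb with 8 exons and 2 transcripts of Fgg with 10 and 9 exons. The 250 bases before each RefSeq start are shown because the factors above are known to act there. They come from RefSeq on GRCm38.p6, at chr3:83025903-83026152 (plus strand) for Fga, chr3:83049864-83050113 (minus strand) for Fgb and chr3:83007474-83007723 (plus strand) for Fgg, each written 5′ to 3′ on the strand of its gene. The GRCm38 annotation starts Fga at 83026076, inside its window. Capitals mark the letters that matched a motif below.
Fga: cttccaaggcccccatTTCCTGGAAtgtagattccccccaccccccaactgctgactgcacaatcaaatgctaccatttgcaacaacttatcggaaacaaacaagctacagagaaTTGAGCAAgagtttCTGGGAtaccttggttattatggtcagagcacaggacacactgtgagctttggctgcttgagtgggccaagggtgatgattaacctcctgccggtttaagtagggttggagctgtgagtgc
Fgb: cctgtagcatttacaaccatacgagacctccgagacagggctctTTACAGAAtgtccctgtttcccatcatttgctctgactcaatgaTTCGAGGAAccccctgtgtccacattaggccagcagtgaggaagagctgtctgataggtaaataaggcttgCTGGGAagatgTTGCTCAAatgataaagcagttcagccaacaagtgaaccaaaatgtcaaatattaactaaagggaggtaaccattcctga
Fgg: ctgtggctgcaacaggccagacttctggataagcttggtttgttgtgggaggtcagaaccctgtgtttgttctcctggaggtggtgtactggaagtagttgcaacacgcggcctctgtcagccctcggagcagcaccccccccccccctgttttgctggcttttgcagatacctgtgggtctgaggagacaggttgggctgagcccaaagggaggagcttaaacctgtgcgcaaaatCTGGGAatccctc
The motifs searched on both strands were TTCNNNGAA (STAT3), TTNNGNAA (C/EBP), CTGGGA (an interleukin-6 response element) and TATAAA (the TATA box). Fga held 1 STAT3, 1 C/EBP and 1 CTGGGA match, the last one lying 121 to 116 bases before the start. Fgb held 1 STAT3, 2 C/EBP and 1 CTGGGA match, with CTGGGA at 91 to 86 bases before the start. Fgg held 1 CTGGGA match, 13 to 8 bases before the start, and none of the letters of the other motifs. None of the 3 windows held TATAAA. Among all 32851 promoter windows of this length, 7.02% held the STAT3 letters, 36.8% the C/EBP letters, 27.0% CTGGGA and 12.4% TATAAA.

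Library depth ranged from 16502107 to 35961325 counts. In 3 libraries Alb exceeded 50 FPKM (the deposited value, scaled by gene length and library size): female Day 0 mouse 2 with 2926, female Day 0 mouse 3 with 65.8 and female Day 3 mouse 2 with 112. The fold changes of the chains are therefore given with and without them, as are the correlations of the chains, and each call of another gene that leaving them out ended is named as such. Xist, the transcript of the inactive X chromosome, had 4153 counts in the library labelled male Day 5 mouse 1, and 4 Y-linked genes had 387, against 59 to 260 and 447 to 545 in the other Day 5 males, which goes against its label. Male Day 0 mouse 4 had 242 Xist counts against 0 to 50 in the other Day 0 males. The Day 0 females had 221, 5, 44 and 66 Y-linked counts (mice 1 to 4) and the 12 later females none, while their Xist counts of 1398 to 10905 lay within the 1323 to 14054 of the later females. Mice 1 and 4 are the Day 0 females left when the 3 libraries of high Alb are taken out. The part of these in the values below was not tested. Mitochondrial transcripts took 42.5% of the counts of that library and 77.9 to 79.8% in male Day 5 mice 2 to 4 and female Day 5 mouse 2. Each of 11 kidney markers was above 0 in every library. Replicates are 4 mice of a group, and the SD is the spread between them.

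All 3 chains were detected in every library except Fgb in male Day 5 mouse 4, where it had 0 counts. Over the 32 mice the counts ran from 15 to 6884 for Fga, from 0 to 9762 for Fgb and from 6 to 10440 for Fgg. For each gene the lowest group median was that of the Day 5 males and the highest that of the Day 3 females. In CPM (counts scaled by the normalised library size), the group medians of Fga ran from 6.19 through female Day 0 (8.79), male Day 0 (13.8), male Day 2 (17.9), female Day 5 (39.0), male Day 3 (44.3) and female Day 2 (67.6) to 76.4. The medians of Fgb ran from 0.70 through male Day 0 (1.17), male Day 2 (1.38), male Day 3 (1.45), female Day 0 (4.20), female Day 5 (5.26) and female Day 2 (5.31) to 8.45. The medians of Fgg ran from 4.90 through male Day 2 (5.44), male Day 0 (5.99), female Day 0 (11.7), female Day 2 (19.5), male Day 3 (22.6) and female Day 5 (24.7) to 34.8. For each gene the values of all 7 pairs of neighbouring groups in this order overlapped.

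**Figure D1:**
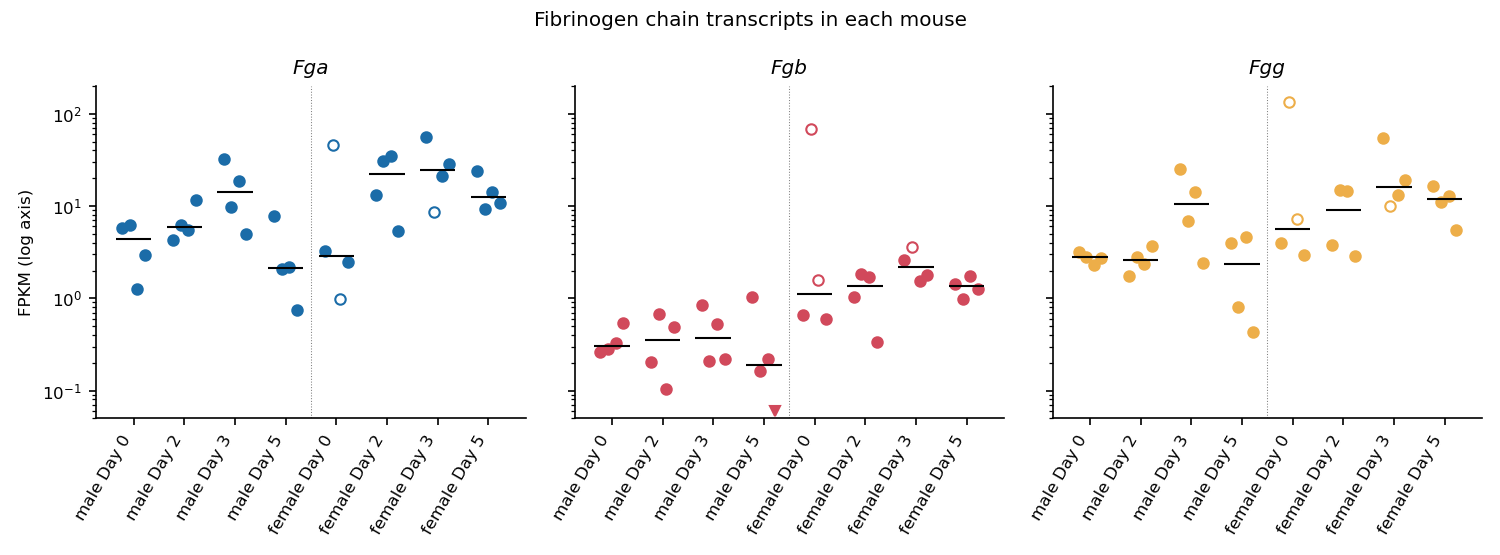
FPKM of Fga, Fgb and Fgg (log axis) in each of the 32 mice, by sex and day, with the group median as a line, open circles for the 3 libraries with Alb over 50 FPKM and a triangle for the library with 0 counts of Fgb. The highest point is female Day 0 mouse 2 for Fgb (69.2 FPKM) and Fgg (135 FPKM) and female Day 3 mouse 1 for Fga (56.1 FPKM), and 3 of the 4 Day 3 males lie above the Day 0 males for Fga and Fgg but not for Fgb.

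In males, Fga, the chain whose released peptide starts fibrin assembly, was highest at Day 3. The 4 Day 0 males had 18.3, 19.5, 3.72 and 9.20 CPM, and the 4 Day 2 males had 13.2, 19.1, 16.6 and 36.9 CPM. At Day 3 the values were 98.4, 30.3, 58.3 and 15.3 CPM. Mice 1 to 3 of Day 3 lay above every Day 0 male, and mouse 4 lay inside their range. The mean at Day 3 was 3.99 times that at Day 0, with a log2 fold change of 2.01 (SE 0.65) in edgeR, and leaving out 1 mouse at a time kept it between 1.46 and 2.31, the lowest without male Day 3 mouse 1. At Day 2 the log2 fold change was 0.78 (SE 0.50), and the Day 2 values overlapped those of Day 0. Day 5 males had 23.6, 6.09, 6.29 and 2.11 CPM, spread on both sides of the Day 0 range, with a log2 fold change of -0.33 (SE 0.69). Without the library labelled male Day 5 mouse 1, the highest of the 4, it was -1.31 (SE 0.60).

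Fgg, whose γ chain carries binding sites for platelet integrin and for the leukocyte integrin Mac-1, differed from Day 0 on the same day. Its values were narrow in the Day 0 males, at 6.95, 6.10, 4.78 and 5.87 CPM, and stayed near them at Day 2, at 3.75, 5.99, 4.90 and 7.99 CPM. At Day 3 they were 53.7, 14.9, 30.2 and 5.21 CPM, so that mice 1 to 3 were again above every Day 0 male and mouse 4 was again among them. The order of the 4 Day 3 males was the same for both genes, with mouse 1 highest and mouse 4 lowest. The log2 fold change of Fgg was 2.14 (SE 0.60) at Day 3, a mean 4.39 times that of Day 0, and ran from 1.51 to 2.48 over the fits leaving out 1 mouse, the lowest again without male Day 3 mouse 1. It was -0.05 (SE 0.26) at Day 2 and -0.18 (SE 0.62) at Day 5, where the mice had 8.17, 1.63, 9.19 and 0.84 CPM, 2 above and 2 below every Day 0 male.

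Fgb, whose chain releases the other peptide that thrombin cuts, had low values in all male groups. It measured 1.03, 1.10, 1.24 and 2.13 CPM at Day 0 and 0.79, 2.59, 0.40 and 1.96 CPM at Day 2. At Day 3 it measured 3.34, 0.81, 2.05 and 0.86 CPM, with 1 mouse above and 2 mice below every Day 0 male. The log2 fold changes were 0.08 (SE 0.58) at Day 2, 0.36 (SE 0.52) at Day 3 and 0.09 (SE 0.88) at Day 5, each smaller than its error. At Day 5 the values were 3.86, 0.59, 0.81 and 0 CPM, and without the library labelled mouse 1 the log2 fold change was -1.49 (SE 0.89).

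A differentially expressed gene (DEG) was one with a log2 fold change beyond 1.5 in either direction and an adjusted p under 0.05. By this rule Fgg was the 1 member called in males at Day 3, where 3.72% of the 15908 genes tested were called. None of the 3 was called in males at Day 2, where 0.716% of 16051 genes were, or at Day 5, where 7.53% of 14969 genes were. These counts were known when the genes were chosen. Beside the male Day 3 values, Alb measured 1.25 to 2.10 FPKM against 0.67 to 2.51 FPKM at Day 0, with a log2 fold change of -0.15 (SE 0.38). The summed level of 28 hepatocyte markers was 200 to 317 CPM at Day 3 and 64.8 to 256 CPM at Day 0. In male Day 3 mouse 1, with 317 CPM, Alb had 3.00 CPM and Apoa1 1.79 CPM. The list includes Serpina1 genes, which proximal tubule is known to express, so the sum is not particular to liver. Transcripts of red cells and platelets, summed over 10 markers, were 2.43 to 5.38 CPM at Day 3 and 438 to 2151 CPM at Day 0, with 5 of the 7 tested called lower. Leukocyte markers summed to 70.1 to 85.1 CPM at Day 3 and 98.4 to 158 CPM at Day 0. The part of these marker changes in the fibrinogen values was not tested. At Day 5, leukocyte markers summed to 193 to 362 CPM in male mice 2 to 4, the libraries with the large mitochondrial share, and to 81.4 CPM in the library labelled mouse 1.

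In females, 1 library decided the fold changes. Fga in the Day 0 females measured 10.1, 141, 2.89 and 7.53 CPM, Fgb measured 2.56, 268, 5.83 and 2.27 CPM, and Fgg measured 8.63, 287, 14.7 and 6.15 CPM. For each chain mouse 2 was far above the other 3. Its Alb was 2926 FPKM against 4.20 to 65.8 FPKM in the other Day 0 females.

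After cisplatin, Fga measured 40.5, 94.6, 106 and 16.3 CPM in the Day 2 females, 171, 26.0, 65.6 and 87.3 CPM in the Day 3 females and 73.6, 27.2, 44.2 and 33.8 CPM in the Day 5 females. Each of these 12 values was above Day 0 mice 1, 3 and 4, and 1 of them, Day 3 mouse 1, was also above Day 0 mouse 2. With all mice the log2 fold changes were 0.67 (SE 1.15), 1.09 (SE 1.12) and 0.13 (SE 1.12) at Day 2, Day 3 and Day 5. Without the 3 libraries of high Alb, a choice made after seeing the data that leaves 2 Day 0 females, they were 2.87 (SE 0.68), 3.61 (SE 0.48) and 2.33 (SE 0.41). Without Day 0 mouse 2 alone they were 3.26, 3.65 and 2.70, and without Day 0 mouse 1, the one with the most Y-linked counts, they were 0.38, 0.78 and -0.20.

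Fgg measured 8.08, 31.3, 30.8 and 6.10 CPM in the Day 2 females, 114, 21.2, 28.2 and 41.3 CPM in the Day 3 females and 35.3, 22.1, 27.3 and 11.8 CPM in the Day 5 females. All 4 Day 3 values were above Day 0 mice 1, 3 and 4, while at Day 2 mice 1 and 4 lay within or below their range. The log2 fold changes with all mice were -2.05 (SE 1.28), -0.64 (SE 1.20) and -1.72 (SE 1.25). Without the 3 libraries their sign turned, to 1.37 (SE 0.65), 3.04 (SE 0.65) and 1.70 (SE 0.41), and without Day 0 mouse 2 alone they were 0.997, 2.37 and 1.31.

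Fgb measured 4.01, 7.12, 6.61 and 1.30 CPM in the Day 2 females, 9.92, 13.9, 5.96 and 6.98 CPM in the Day 3 females and 5.59, 3.61, 6.86 and 4.93 CPM in the Day 5 females. All 4 Day 3 values were above Day 0 mice 1, 3 and 4, and the highest of them, mouse 2, was a library of high Alb. The log2 fold changes were -3.87 (SE 1.62), -2.94 (SE 1.47) and -3.73 (SE 1.64) with all mice and 0.98 (SE 0.55), 1.65 (SE 0.30) and 1.12 (SE 0.42) without the 3 libraries. Without Day 0 mouse 2 alone they were 0.47, 1.36 and 0.58. The direction of Fgb and Fgg in females thus depended on that library.

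None of the 3 genes was called in females with all mice, where 1.41% of 16541 genes were called at Day 2, 2.48% of 17065 at Day 3 and 0.228% of 16260 at Day 5. The hepatocyte markers summed to 217 to 15226 CPM in the Day 0 females, 109 to 188 CPM at Day 2, 170 to 771 CPM at Day 3 and 165 to 291 CPM at Day 5. Red cell and platelet markers summed to 414 to 2656 CPM at Day 0, 8.67 to 47.2 CPM at Day 2 and 5.53 to 79.7 CPM at Day 3. Their part in the fibrinogen values was not tested. The fits of the 3 days share the same 4 Day 0 mice of each sex, so the values of different days are not independent.

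**Figure D2:**
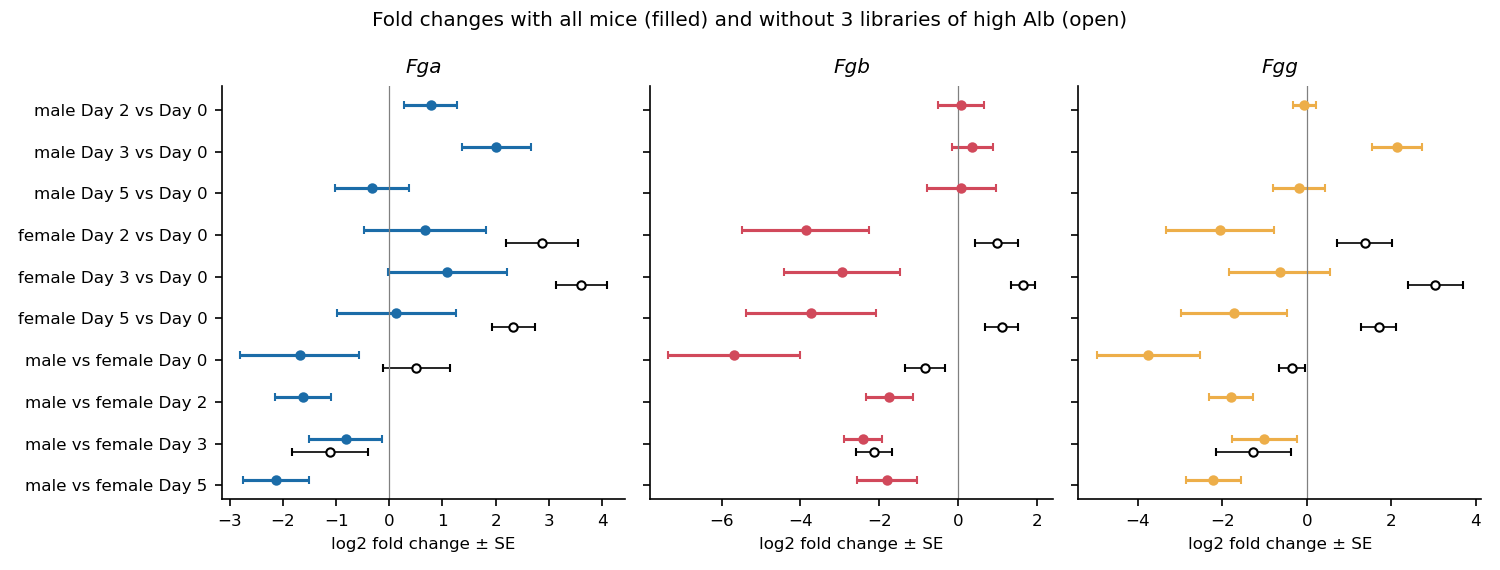
Log2 fold change with its SE for each chain (panels) in the 6 comparisons with Day 0 and the 4 comparisons of males with females, with all mice as filled points and without the 3 libraries of high Alb as open points. For Fgb and Fgg the filled points of the females lie below 0 on all 3 days and the open points above 0.

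The level of each chain was then set against the liver genes of the same mouse. In female Day 0 mouse 2 the chains measured 46.2 (Fga), 69.2 (Fgb) and 135 (Fgg) FPKM, Alb 2926 FPKM and Apoa1 996 FPKM, and each of 28 hepatocyte markers was above 0. The chains there were 0.0158, 0.0237 and 0.0461 times the Alb level. In female Day 0 mouse 3, with Alb at 65.8 FPKM, the ratios were 0.0150, 0.0240 and 0.110, close to the first library for Fga and Fgb. In the Day 3 males the ratio of Fga to Alb was 25.5, 5.27, 11.9 and 2.37, and that of Fgg to Alb was 20.02, 3.73, 8.91 and 1.16. In the Day 2 females Fga was 5.94, 13.3, 21.1 and 1.65 times Alb.

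If every unit of Alb came with the chain level that it had in female Day 0 mouse 2, the Alb in the other 31 mice would carry a computable share of each chain. That share was under 10% of the measured Fga in 29 of 31 mice, of Fgg in 26 of 31 and of Fgb in 12 of 31. Among the 16 mice of Day 2 and Day 3, it was under 10% in 15 for Fga, 14 for Fgg and 7 for Fgb. In the Day 3 males it came to between 0.0618 and 0.665% of Fga, between 0.23 and 3.96% of Fgg and between 3.46 and 22.6% of Fgb. In female Day 3 mouse 2 it came to 20.6% of Fga, 73.3% of Fgb and 51.3% of Fgg, and in female Day 0 mouse 3 to 105%, 98.7% and 41.9%. Male Day 2 mouse 2, with Alb at 17.5 FPKM, had 61.8% for Fgb and 4.42% for Fga, and female Day 5 mouse 2, with Alb at 32.9 FPKM, had 79.0% for Fgb and 5.53% for Fga. At this proportion the computed share was under 10% for Fga in 29 of 31 mice and larger for Fgb, with its low level. The proportion was taken from 1 Day 0 library. Whether it holds in liver after cisplatin was not tested, and the source of the chains is not read from it. Apoa1 was between 0.19 and 11.04 FPKM in all mice but female Day 0 mice 2 and 3. Of 10 defining hepatocyte markers, all were above 0 in 16 of 32 mice, and Cps1, Ahsg and members of the Serpina1 family were the ones at 0 elsewhere. Proximal tubule is known to express several Serpina1 genes, so this list is not particular to liver.

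**Figure D3:**
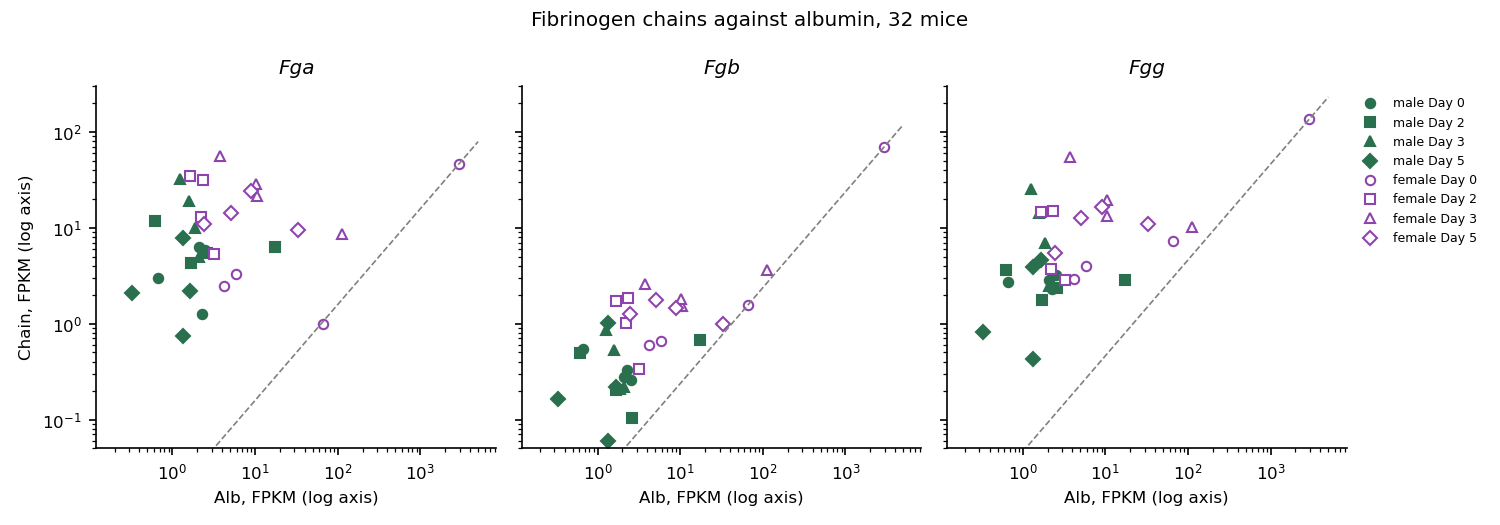
FPKM of each chain against FPKM of Alb (both log axes) in the 32 mice, filled for males and open for females with a shape for each day; the dashed line is the proportion of chain to Alb in female Day 0 mouse 2. For Fga, 29 of the other 31 mice lie over 10 times above the line, and for Fgb 12 of 31 do.

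Per gene length, the chains were not equal. Fgb was the lowest of the 3 in 30 of 32 mice by FPKM, Fga was the highest in 24 and Fgg in 8. In male Day 3 mouse 1 the summed FPKM of the 3 chains was 55.2% Fga, 1.48% Fgb and 43.3% Fgg, and in the other Day 3 males Fgb took 1.22 to 2.88%. In the Day 2 females Fgb took 3.35 to 5.72% and Fga 62.5 to 73.3%. Female Day 0 mouse 2 stood apart with 18.4% Fga, 27.7% Fgb and 53.9% Fgg, and female Day 0 mouse 3 with 10.1%, 16.1% and 73.8%. These were the 2 mice in which Fgb exceeded Fga. Female Day 3 mouse 2, the third library of high Alb, had 16.3% Fgb. In the other 29 libraries the Fgb share did not exceed 9.86%.

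**Figure D4:**
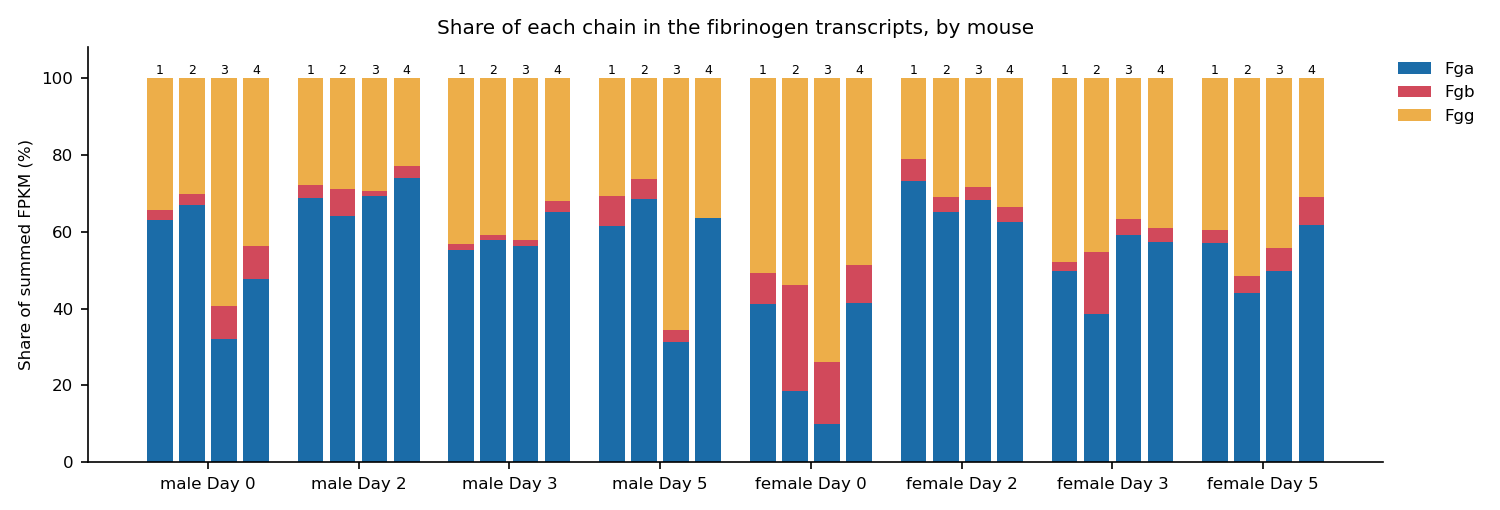
Share of the summed FPKM of Fga, Fgb and Fgg that each chain took in every mouse, as stacked bars to 100%, by sex and day. The Fgb part is widest in female Day 0 mouse 2 (27.7%), female Day 3 mouse 2 (16.3%) and female Day 0 mouse 3 (16.1%).

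Males and females of the same day were then compared, with a negative log2 fold change for a lower level in males. The share of all genes without overlap between the sexes was not counted, so nothing is read from a lack of overlap below. At Day 3, Fgb did not overlap between the sexes, with 0.81 to 3.34 CPM in males and 5.96 to 13.9 CPM in females, and the male mean was 0.192 times the female mean. The log2 fold change of Fgb was -2.42 (SE 0.48), it ran from -2.91 to -2.14 over the fits leaving out 1 mouse, and it was -2.14 (SE 0.46) without the library of high Alb. The other chains overlapped at Day 3, with -0.82 (SE 0.69) for Fga and -1.01 (SE 0.77) for Fgg. Fgb was called at Day 3, where 1.93% of 16673 genes were, and the call is part of what was known when the genes were chosen. At Day 3, Alb was called lower in males as well (log2 fold change -4.34, adjusted p = 0.0443, edgeR quasi-likelihood test), as was Apoa1 (-2.26, adjusted p = 0.0184, edgeR), with Alb at 1.25 to 2.10 FPKM in males and 3.75 to 112 FPKM in females, or 3.75 to 10.5 FPKM without the library of high Alb. Without that library both calls were kept, at -2.28 for Alb and -1.56 for Apoa1. Among 18 tested hepatocyte markers 6 were called lower and 2 higher in males, and without that library 6 of 17 were lower and 5 higher, where 3.18% of all genes were called. Their part in the Fgb difference was not tested.

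At Day 2 all 3 chains had similar differences, -1.62 (SE 0.53) for Fga, -1.75 (SE 0.60) for Fgb and -1.78 (SE 0.52) for Fgg, with overlapping values and no call, where 0.813% of 16608 genes were called. At Day 5, Fga and Fgg did not overlap between the sexes, which is given as a description. The males had at most 23.6 CPM of Fga and 9.19 CPM of Fgg, and the females had at least 27.2 and 11.8 CPM. The log2 fold changes at Day 5 were -2.13 (SE 0.61), -1.80 (SE 0.76) and -2.21 (SE 0.64), none of them called, where 0.236% of 15237 genes were. Without the library labelled male Day 5 mouse 1 they were -3.11 (SE 0.43), -3.40 (SE 0.67) and -2.55 (SE 0.72). The mitochondrial share of counts was 42.5 to 79.8% in these males and 9.30 to 77.9% in the females. Alb did not overlap at Day 5 either, with 0.33 to 1.65 FPKM in males and 2.44 to 32.9 FPKM in females (log2 fold change -3.38, SE 0.82, not called). Apoa1 overlapped, with 0.25 to 2.14 FPKM in males and 1.65 to 7.18 FPKM in females (-2.33, SE 0.71, not called). Without the library labelled male Day 5 mouse 1, Alb was -3.41 (not called) and Apoa1 -3.67 (called, adjusted p = 0.00353 in edgeR), where 7.75% of all genes were called. The part of the mitochondrial share and of the liver genes in the difference of the chains was not tested.

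At Day 0 the fold changes rested on the libraries of high Alb. Fgb was 1.03 to 2.13 CPM in males and 2.27 to 268 CPM in females, without overlap, while Fga and Fgg overlapped. The log2 fold changes were -1.68 (SE 1.12) for Fga, -5.68 (SE 1.68) for Fgb and -3.75 (SE 1.22) for Fgg with all mice. Leaving the 3 libraries out gave 0.51 (SE 0.63), -0.84 (SE 0.50) and -0.34 (SE 0.31). None was called at Day 0, where 0.362% of 16042 genes were.

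The change from Day 0 was also compared between the sexes in 1 model, as the male change minus the female change. With all mice it was 0.07 (SE 1.34), 3.93 (SE 1.77) and 1.97 (SE 1.37) for Fga, Fgb and Fgg at Day 2, 0.87 (SE 1.38), 3.29 (SE 1.68) and 2.76 (SE 1.46) at Day 3, and -0.50 (SE 1.36), 3.89 (SE 1.81) and 1.502 (SE 1.40) at Day 5. With the 3 libraries left out, each of the 9 values was negative, from -2.66 (Fga at Day 5) to -0.92 (Fgb at Day 2). None of the 3 genes was called with all mice. The edgeR fit called 0% of 17467 genes at Day 2, with 738 genes at an unadjusted p under 0.05, then 0.0114% of 17598 at Day 3 and 0.231% of 16907 at Day 5.

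Across the 32 mice, on a log2 CPM scale, Pearson's r was 0.83 between Fga and Fgg, 0.86 between Fgb and Fgg and 0.66 between Fga and Fgb. The points share libraries and depth, and these are descriptions. With Alb, r was 0.24 for Fga, 0.58 for Fgg and 0.72 for Fgb, and over the 29 mice without the libraries of high Alb it was 0.28, 0.40 and 0.42. With Apoa1, r was 0.45 for Fga, 0.72 for Fgg and 0.85 for Fgb over the 32 mice and 0.70, 0.68 and 0.75 over the 29. Over those 29 mice the r between chains was 0.90 (Fga and Fgg), 0.82 (Fgb and Fgg) and 0.79 (Fga and Fgb). With the chains themselves left out of the ranking, the 5 protein-coding genes with the pattern most like Fga were Bag2 (r = 0.87), Acat3 (0.84), Nek6 (0.81), Cyp4a10 (0.81) and Reep6 (0.79). For Fgb they were Cyp2d10 (0.88), Apoa1 (0.85), Apoc3 (0.85), Mbl2 (0.84) and Bhmt (0.84), of which Apoa1, Apoc3 and Mbl2 are known as secreted products of liver. For Fgg they were Cfi (0.78), Apoc3 (0.76), Ly6f (0.75), Ttpa (0.75) and Spc25 (0.75), so that Apoc3 was in the lists of both Fgb and Fgg. Without the 3 libraries of high Alb, 2 of the 5 were kept for Fga, with Bag2 first at 0.95, and none for Fgb or Fgg.

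Of the genes around the cluster, Plrg1, a splicing factor gene that starts 5659 bp beyond Fgb, had group means of 19.6 to 25.6 CPM in all 8 groups. It measured 22.2, 21.9, 19.2 and 19.7 CPM in the Day 3 males and 24.2, 24.0, 20.98 and 19.2 CPM in the Day 0 males, values that overlap. Lrat, which encodes a retinol-esterifying enzyme 103751 bp from the cluster, had 0.88 to 3.58 CPM as group means. The lincRNA Gm30097 overlaps the start of Fgg by 765 bp on the opposite strand and had 280 counts in all 32 libraries together against 28575 for Fgg. The strand setting of the counting is not given in the sources used here, so reads of the overlap cannot be told apart. The remaining neighbours within 300 kb, Rbm46, Rbm46os, Dchs2, Gm10710, Gm30043, Gm22038 and Gm43348, had 0 to 109 counts over all libraries.

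The genes that make, use or remove fibrin were read as lists, chosen with earlier results known. Of 48 coagulation and fibrinolysis genes, 36 were tested in males at Day 3 and 2 were called, where 3.72% of all genes were, with a median log2 fold change of 0.01 against 0.02 over all genes. Vkorc1, which recycles vitamin K for clotting factors, fell (-1.63, adjusted p = 0.0370 in edgeR). This call was kept in 2 of 8 fits leaving out 1 mouse and was lost with mouse number as a replicate block. Without male Day 0 mouse 3 the log2 fold change was -0.97. In males at Day 5, 4 of 34 tested genes were called higher and 3 lower, where 7.53% of all genes were called, with a median of 0.81 against 0.04 over all genes. Without the library labelled male Day 5 mouse 1, 8 of 35 were called higher and 6 lower, where 12% of all genes were called, and the median was 0.85. In the other 3 Day 5 males mitochondrial transcripts took 78.9 to 79.8% of the counts, and 2 of 9 tested leukocyte markers, S100a8 (6.04) and S100a9 (6.05), were called higher at Day 5. The part of these in the list was not tested. Among the higher ones were Serpine2 (2.75), Plat (2.52), the tissue plasminogen activator, and Plaur (1.82), the urokinase receptor. The lower ones were Hrg (-4.97), Serpinf2 (-3.99), which encodes the plasmin inhibitor, and Proc (-2.55), protein C. Plat measured 92.6, 269, 96.7 and 197 CPM at Day 5 and 18.1 to 35.9 CPM in the Day 0 males. The Day 5 calls of the 6 genes named here were each kept in all 8 fits leaving out 1 mouse.

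In females, F2rl1, a receptor cut by proteases, was called higher at Day 2 (1.97, adjusted p = 0.0346, kept in 3 of 8 fits leaving out 1 mouse) and at Day 3 (2.10, adjusted p = 0.0465), and Vkorc1 (-2.06) and Serpinf2 (-1.97) were called lower at Day 3, in edgeR. Thus 1 of 39 tested genes of the list passed at Day 2, where 1.41% of all genes did, and 3 of 42 at Day 3, where 2.48% did. The female calls at Day 3 had adjusted p-values of 0.0465 to 0.0499 and were kept in 1 or 2 of 8 fits leaving out 1 mouse. Without the 3 libraries of high Alb, F2rl1 at Day 2 (1.46) and Vkorc1 at Day 3 (-1.02) were no longer called, and 3 of 40 tested genes passed at Day 3, where 2.02% of all genes did. No gene of the list was called in males at Day 2 or in females at Day 5. In edgeR 11 of 39 had an unadjusted p under 0.05 in males at Day 2, where 4654 of all 16051 genes had. In females at Day 5 it was 16 of 38, where 2548 of all 16260 genes had. DESeq2 called 1 and 5 of the list there, and its share over all genes was not counted. Serpinf2 was higher in males than females at Day 3 (2.30, adjusted p = 0.000255), as was F8 (1.66), clotting factor VIII, while Serpina10 (-3.40) and Kng1 (-3.38), which encodes kininogen, were lower. The genes of prothrombin (F2) and plasminogen (Plg), made mainly in liver, had 162 and 67.5 CPM in female Day 0 mouse 2, at most 5.10 CPM of F2 elsewhere and at most 4.31 CPM of Plg elsewhere. In the 4 Day 3 males, where Fga was 15.3 to 98.4 CPM, F2 was 0.42 to 0.88 CPM and Plg 0 to 0.35 CPM.

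Among 14 genes for fibrinogen-binding receptors and partners, Icam1, an adhesion molecule that binds fibrinogen and leukocyte integrins, rose in males at Day 3 (1.62, adjusted p = 0.00732) and in females at Day 2 (2.55, adjusted p = 0.0405) and Day 3 (2.72, adjusted p = 0.0465), by edgeR. It measured 32.2, 24.4, 30.1 and 19.4 CPM in the Day 3 males and 5.18 to 10.2 CPM in the Day 0 males, without overlap. At Day 5 in males Itgb3 (1.91), Thbs1 (1.90) and Tlr4 (1.55) were called higher, 3 of 14, where 7.53% of all genes were called, with a list median of 1.16. Without the library labelled male Day 5 mouse 1 it was 4 of 14, where 12% of all genes were called, with a median of 1.36. On the same day 2 of 7 tested red cell and platelet markers were called higher in males, Ppbp (4.65) and Alas2 (3.19), with a median of 1.81, and so were S100a8 and S100a9 of the leukocyte markers (2 of 9, median 1.16). Of 11 kidney markers Slc22a6 (-3.12) and Slc34a1 (-2.93) were called lower, with a median of -1.12. The part of these in the list was not tested. Over the fits leaving out 1 mouse Icam1 was kept in 7 of 8 in males and in 3 and 2 of 8 in the Day 2 and Day 3 females, Thbs1 in 8, Tlr4 in 3 and Itgb3 in 2. Itgam and Itgb2, the subunits of Mac-1, had log2 fold changes of -0.12 (SE 0.90) and 0.09 (SE 0.40) in the Day 3 males, and neither was called. Of 19 genes whose products hold a fibrinogen-like domain, 16 were tested. Fgl1, a liver-secreted relative, rose in males at Day 3 (1.95, adjusted p = 0.0122, edgeR), from 1.14, 0.90, 0.37 and 0.92 CPM to 3.796, 3.71, 2.35 and 2.92 CPM. The call was kept in all 8 fits leaving out 1 mouse. It was lost in 1 fit over all groups and with mouse number as a replicate block. Tnc rose in males at Day 2 (1.59), and Fgl2 (2.79), Angpt2 (2.04) and Tnxb (1.79) in males at Day 5. Leaving out 1 mouse kept Tnc in 1 of 8 fits, Fgl2 in 3, Tnxb in 2 and Angpt2 in all 8. In females Fcna, a ficolin, was lower at Day 2 (-2.74) and Day 3 (-2.20), and Angptl4 higher at Day 5 (2.03). Fcna was kept in 2 of 8 fits at Day 2 and in 1 of 8 at Day 3, where it was -1.38 and not called without the 3 libraries of high Alb, and Angptl4 was kept in 5 of 8. Tnc was higher in males than in females at Day 2 (1.51, kept in 4 of 8).

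In the acute-phase list of 25 genes, to which the fibrinogen genes belong in liver, Lcn2 (NGAL) rose in males at Day 3 (3.53, adjusted p = 0.0155), in females at Day 3 (4.40, adjusted p = 0.0465) and in males at Day 5 (4.19, adjusted p = 0.0185), by edgeR. In the Day 3 males Lcn2 measured 85.2, 22.0, 30.0 and 7.19 CPM, with mouse 1 highest and mouse 4 lowest as for Fga and Fgg. Across the 32 mice Pearson's r with Lcn2 was 0.50 for Fga, 0.46 for Fgg and 0.15 for Fgb, and over the 29 mice without the libraries of high Alb it was 0.53, 0.63 and 0.37, as a description. Of 16 acute-phase genes tested in males at Day 3, 2 were called higher (Lcn2 and Saa4) and 2 lower (Orm1 and Apcs), where 3.72% of all genes were called, and haptoglobin (Hp) had -0.94 (SE 0.71). At Day 5 in males 5 of 16 were higher, Saa3 (5.08), Lcn2, Lbp (2.38), Cp (1.79) and Mt1 (1.59), where 7.53% of all genes were called. Without the library labelled male Day 5 mouse 1, 7 of 17 were higher and 1 lower, where 12% of all genes were called. In females at Day 3, Lcn2 was higher and Orm1 lower (-4.41) among 21, where 2.48% of all genes were called. Without the 3 libraries of high Alb 7 of 21 were higher and 1 lower, where 2.02% of all genes were called. At Day 3, Hpx (-4.05), Serpina3m (-2.81) and Orm1 (-2.04) were lower in males than in females, and without the library of high Alb Orm1 was -1.30 and not called. Of 8 fits leaving out 1 mouse, Lcn2 was kept in 7 in males at Day 3, in 2 in the Day 3 females and in 6 in males at Day 5. Saa4 was kept in 2 of the 6 such fits that tested it and Apcs in 2 of 8, Mt1 in 3, Saa3 in 5, Lbp in 7 and Cp in 8. Orm1 was kept in 8 of 8 in the Day 3 males and in 1 of 8 in the Day 3 females and between the sexes, where Hpx was kept in 4 and Serpina3m in 8.

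Of 25 genes of the interleukin-6 and STAT3 pathway and of the factors named for the promoters, Il6 was at 0 in 20 libraries and at most 2.26 CPM in the others. Lif, a cytokine of the same family, rose in males at Day 3 (4.19, adjusted p = 0.0110) and in females at Day 2 (4.45), Day 3 (5.25) and Day 5 (4.74, adjusted p = 0.0287), by edgeR. Osmr, the oncostatin M receptor chain, rose in males at Day 3 (1.68, adjusted p = 0.00598), from 5.86 to 9.74 CPM at Day 0 to 18.2 to 33.4 CPM. Socs3, a target of STAT3, measured 32.7, 18.5, 17.1 and 8.24 CPM in the Day 3 males (2.64, SE 0.88, not called) and was called in the Day 3 females (2.82, adjusted p = 0.0465). Its highest and lowest Day 3 males were mice 1 and 4, as for Fga. Stat3 itself had log2 fold changes of 0.79 (SE 0.21) in males and 0.99 (SE 0.26) in females at Day 3, and neither was called. Cebpd rose in the Day 5 males (2.24) and was lower in males than females at Day 0 (-2.02), a call that was lost without the 3 libraries of high Alb (-1.93). Leaving out 1 mouse kept Lif, Osmr and the Day 5 call of Cebpd in all 8 fits in males, and kept Lif in 3, 2 and 2 of 8 in females at Day 2, Day 3 and Day 5, Socs3 in 2 and Cebpd between the sexes in 3.

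Among 15 markers of injured tubule, Cdkn1a rose in females on all 3 days (4.32, 4.20 and 3.85) and in males at Day 3 (3.09) and Day 5 (3.19). It was the 1 marker called of 15 in females at Day 2 and Day 5 and in males at Day 3, where 1.41%, 0.228% and 3.72% of all genes were called. Krt20 (6.18) and Havcr1 (KIM-1, 5.86) rose in the Day 3 females, where 3 of 15 markers and 2.48% of all genes were called. Both were lower in males than in females at Day 3 (-3.93 and -3.60), as was Spp1 (-1.81), 3 of 15 markers where 1.93% of all genes were called. In males at Day 5, Krt19 (2.45), Krt18 (2.11) and Cd44 (1.78) were higher and Itgb6 lower (-2.11), which with Cdkn1a makes 5 of 14 tested markers where 7.53% of all genes were called. The median log2 fold change of the 15 markers was 1.06 in the Day 3 females, against 0.03 over all genes, and 1.45 without the 3 libraries of high Alb. Cdkn1a was kept in all 8 fits leaving out 1 mouse in each comparison named except the Day 3 females (2 of 8). Krt20 and Havcr1 were kept in 2 of 8 in the Day 3 females and in 2 and 4 of 8 between the sexes, and Spp1 in 4. Krt18 and Itgb6 were kept in 8 of 8, Krt19 in 4 and Cd44 in 3. No gene of these lists was called in the comparison of the day effects between the sexes. For coagulation and fibrinolysis, 11 of 42, 3 of 42 and 13 of 41 tested genes had an unadjusted p under 0.05 there in edgeR at Day 2, Day 3 and Day 5. Over all genes it was 738 of 17467, 1252 of 17598 and 2568 of 16907. DESeq2 called 1, 0 and 5 of the list, and its share over all genes was not counted.

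**Figure D5:**
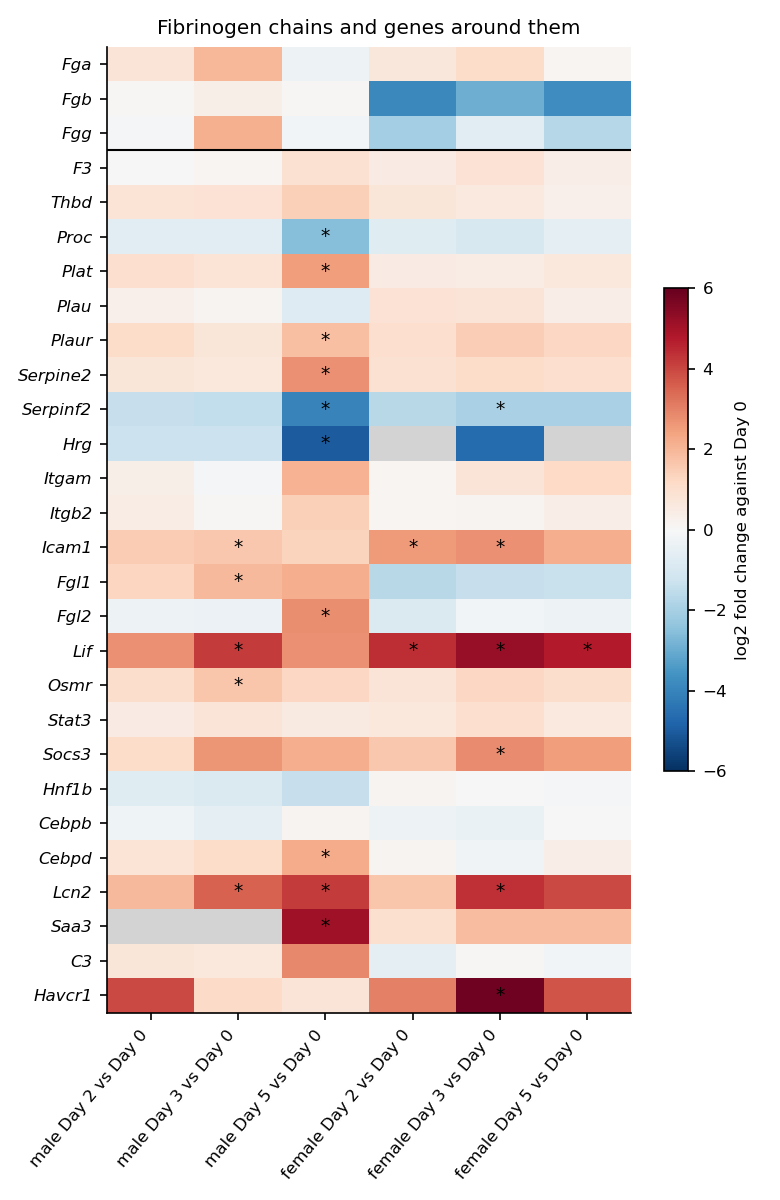
Heat map of log2 fold changes against Day 0 (colour scale from -6 to 6) for the 3 chains, above the line, and genes of clotting, fibrin removal, binding, the interleukin-6 pathway, the acute phase and tubule injury, below it, in males and females at Day 2, Day 3 and Day 5. Asterisks mark genes called by edgeR, grey cells genes not tested in that comparison, and the chains carry no asterisks because they were chosen with their fold changes known.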

How the data were processed

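Kidney RNA of 32 mice in 8 groups of 4 was measured by RNA-seq. The authors deposited raw counts per gene and FPKM computed from the same counts. Per the labels, the submitters' processing notes name HTSeq, DESeq2 and the builds GRCm39 and mm39, whereas the start and end of 53499 of 54409 genes (98.3%) in the deposited counts table match the GENCODE M21 annotation of GRCm38. The aligner and the strand setting are not given in the sources used here. Groups follow the labels, and the replicates are the numbered mice.

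Counts were tested with edgeR 4.0.16 (TMM, filterByExpr, robust quasi-likelihood test, Benjamini-Hochberg adjustment over all genes tested), fitting only the groups compared, and a DEG had a log2 fold change beyond 1.5 in either direction at an adjusted p under 0.05. The test was checked on simulated counts. CPM used TMM library sizes over the 32 libraries, with a prior count of 2 for log2 CPM, and FPKM served for comparisons between genes. Total counts of 16502107 to 35961325 per library limit the precision of low genes such as Fgb in males. Reads carry no molecular identifiers.

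The members and the gene lists were chosen with earlier results of these data known. Named are the 3 chains, Alb, Apoa1, the neighbours within 300 kb, the 5 genes most similar to each chain, the defining hepatocyte markers, a set of central pathway genes whatever their call, and at most 3 called genes in each direction per list and comparison. Alternatives were DESeq2 1.42.0 (Wald test, size factors), no low-count filter, 1 fit over all groups, a fold threshold of 1 on the log2 scale, no mitochondrial genes, mouse number as a block, and leaving out each mouse. Leaving out the 3 libraries of high Alb, and the search for outlying mice on the linear scale, were added after seeing the data. Python 3.11.15 and R 4.3.3 were used. Some genes of the lists are counted but not reported here by name.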

Additional observations from a re-analysis of the deposited data

Results flagged for a closer look

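In each group of 4 mice, the gap between the highest or lowest mouse and the nearest other mouse was divided by the range of the group, for the 3 chains, Alb, Apoa1 and the summed hepatocyte markers, on a log2 scale (of CPM plus 0.05 for the genes) and on the linear scale of the levels given here. Dixon's 95% critical value was exceeded in 4 of 48 groups on the log2 scale, and chance alone exceeds it in about 1 of 20 groups. On the linear scale it was exceeded in 12 of 48. That scale was added with the levels of these mice known, so its ratios only describe them and are no test.

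On the linear scale the ratio of each chain was above that value in female Day 0 mouse 2, the library with the highest Alb, which was known to stand apart when the genes were chosen. Fgb there was 268 CPM against 2.27 to 5.83 CPM in the other 3 (ratio 0.987), Fgg was 287 CPM against 6.15 to 14.7 CPM (ratio 0.970) and Fga was 141 CPM against 2.89 to 10.1 CPM (ratio 0.948). In the same mouse Alb (ratio 0.979), Apoa1 (ratio 0.975, at 996 FPKM against 0.46 to 25.0 FPKM) and the summed hepatocyte markers (ratio 0.966) were the highest of the group. None of the chains exceeded the critical value on the log2 scale.

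In female Day 3 mouse 2, Alb (ratio 0.938) and the summed hepatocyte markers (ratio 0.894, at 771 CPM against 170 to 234 CPM) were the highest on the linear scale. Alb in male Day 2 mouse 2 was the highest of its group (linear ratio 0.881), at 17.5 FPKM against 0.62 to 2.64 FPKM. Alb in male Day 0 mouse 4 was the lowest of its group (log2 ratio 0.861), at 0.67 FPKM against 2.11 to 2.51 FPKM in the other 3. The summed hepatocyte markers of the same mouse were also the lowest (log2 ratio 0.903, linear ratio 0.832), at 64.8 CPM against 224 to 256 CPM. Alb in male Day 5 mouse 2 was the lowest of its group (log2 ratio 0.855), at 0.33 FPKM against 1.33 to 1.65 FPKM. In the library labelled male Day 5 mouse 1 the summed hepatocyte markers were the highest (log2 ratio 0.853, linear ratio 0.890), at 154 CPM against 81.3 to 89.3 CPM, as was Apoa1 (linear ratio 0.916), at 2.14 FPKM against 0.25 to 0.41 FPKM.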

How the results depend on the processing

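Using DESeq2 size factors, the DESeq2 Wald test, no filter, 1 fit over all groups or no mitochondrial genes, each of the 39 fold changes of the chains moved by less than 1 SD between mice. In no comparison did all same-numbered mice correlate above 0.1. In males against females at Day 0, however, r was 0.27, 0.44 and 0.48 for mice 1, 3 and 4. Their medians with other-numbered mice were -0.10, -0.23 and -0.10, and mouse 2 had -0.07 against 0.16. Whether the mouse numbers pair the samples is therefore not settled. With mouse number as a replicate block 11 of the 39 moved: Fgb to -0.996 in the Day 2 females; Fga, Fgb and Fgg to 3.02, 0.16 and 1.37 in the Day 3 females and to 1.98, -0.25 and 0.35 in the Day 5 females; Fgb to -2.63 and Fgg to -1.67 in males against females at Day 0; and Fgb in the difference of the sexes to 1.56 at Day 2 and 1.80 at Day 5. Leaving out the 3 libraries of high Alb, 21 of 24 moved, to 2.87, 0.98 and 1.37 (Fga, Fgb, Fgg) in the Day 2 females, 3.61, 1.65 and 3.04 in the Day 3 females, 2.33, 1.12 and 1.70 in the Day 5 females, 0.51, -0.84 and -0.34 in males against females at Day 0, and -2.14, -0.92 and -1.45, -1.64, -1.30 and -0.93, and -2.66, -0.99 and -1.88 in the difference of the sexes at Day 2, Day 3 and Day 5.

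Leaving out each mouse moved 21 of 384 fold changes by at least 1 SD between mice, each of them without female Day 0 mouse 2. That SD is wide where mice differ much, so other large shifts are not counted. Fgb ran from -1.49 to 0.46 in the Day 5 males and from -3.40 to -1.43 between the sexes at Day 5. Neither was counted as moved, and both lowest values came without the library labelled male Day 5 mouse 1. The ranges in females were 0.32 to 3.26, -4.27 to 0.47 and -2.44 to 0.997 (Fga, Fgb, Fgg) at Day 2, 0.55 to 3.65, -3.35 to 1.36 and -1.40 to 2.37 at Day 3, and -0.23 to 2.70, -4.14 to 0.58 and -2.10 to 1.31 at Day 5. In males against females at Day 0 they were -2.07 to 0.85, -6.08 to -1.40 and -4.13 to -0.77. In the difference of the sexes they were -2.49 to 0.46, -0.38 to 4.36 and -1.05 to 2.38 at Day 2, -1.69 to 1.42, -1.03 to 3.7005 and -0.27 to 3.52 at Day 3, and -3.04 to -0.0388, -0.49 to 4.38 and -1.49 to 1.92 at Day 5.

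For most alternatives below, the share of all genes called was not counted, so the counts do not show whether the list or all genes moved. That share was counted only without the 3 libraries and without the library labelled male Day 5 mouse 1. The count of called coagulation and fibrinolysis genes was 0, 2 and 7 in males at Day 2, Day 3 and Day 5, 1, 3 and 0 in females, and 0, 1, 4 and 0 between the sexes (Day 0 first). By the DESeq2 Wald test it was 1 (male Day 2), 5, 6 and 5 (female Day 2, Day 3, Day 5), 4, 3, 8 and 3 (sexes, Day 0 first), and 1 and 5 in the difference of the sexes at Day 2 and Day 5. In 1 fit over all groups it was 1 and 11 (male Day 2, Day 5), 12, 12 and 11 (females), 10 and 2 (sexes at Day 0, Day 2) and 7 (difference at Day 5). With no filter it was 1 (male Day 3), 2 and 2 (female Day 2, Day 5), 3 (sexes at Day 2) and 1 (sexes at Day 5). With the replicate block it was 0 in males at Day 3 and in females at Day 2 and Day 3, and 1 between the sexes at Day 0. With a log2 threshold of 1 it was 1, 8 and 12 (males), 6 (female Day 3), and 2 and 7 (sexes at Day 2, Day 3). Leaving the 3 libraries out gave 0 in females at Day 2. Over the fits leaving out 1 mouse it ran from 0 to 3, 0 to 6 and 6 to 14 in males, 0 to 10, 0 to 11 and 0 to 6 in females, 0 to 6, 4 to 5 and 0 to 8 between the sexes at Day 2, Day 3 and Day 5, and 0 to 6 in the difference at Day 5; the 14 and the 8 came without the library labelled male Day 5 mouse 1. Of the 71 calls of named genes, 32 were lost with the replicate block, 17 with no filter and 11 in 1 fit over all groups, and of 566 fits leaving out 1 mouse 221 lost the call; none changed sign. Leaving out the 3 libraries lost 5 of 32 calls: F2rl1 in the Day 2 females, Fcna and Vkorc1 in the Day 3 females, and Cebpd at Day 0 and Orm1 at Day 3 between the sexes. The cause was not tested.

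Of the 5 most similar genes, Spearman's rho kept 2 for Fgb and 3 for Fgg. Leaving out the Day 5 mice kept 0, 2 and 1 for Fga, Fgb and Fgg, and leaving out the 3 libraries kept 2, 0 and 0. Fgb had 0 to 80 counts in the male libraries, which limits the precision of its values there.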
